A study of Mus musculus with 4 samples.

Results

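The 9 interferon response genes *Stat2*, *Irf1*, *Irf7*, *Isg15*, *Ifit1*, *Ifit3*, *Gbp2*, *Gbp3* and *Bst2* were followed across the non-hematopoietic cells of mouse long bones, in mice that lost the Hippo pathway kinase LATS2 in endothelial cells (ECs) and in controls. They were chosen by symbol, as 9 of the 53703 features in the count tables, and each symbol matched 1 feature. The cells were taken from the metaphysis of the tibia and femur when the mice were 12 weeks old, were depleted of blood cells and were sequenced with 10x Chromium V3, which counts RNA molecules at their 3′ ends by unique molecular identifiers (UMIs). There were 2 libraries of *Lats2*iECKO mutants, in which tamoxifen activates a Cre recombinase driven by the *Cdh5* promoter and so recombines floxed *Lats2* in ECs, and 2 libraries of Cre-negative littermates as controls, whose *Lats2* stays intact. The sample labels call the controls untreated, whereas the study's methods give tamoxifen to both genotypes. In mutants the other cell types kept *Lats2*, and the sources used here do not say how many animals went into a library.

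Interferons are secreted when cells sense viral or other foreign nucleic acids. Type I interferons act through the receptor chains IFNAR1 and IFNAR2 and the kinases JAK1 and TYK2 to activate a complex that contains STAT2 and IRF9 and binds the interferon-stimulated response element (ISRE). Interferon-γ acts mainly through the gamma-activated site (GAS). Among the genes followed here, STAT2 and the interferon regulatory factors IRF1 and IRF7 carry or amplify the signal. ISG15 is a ubiquitin-like modifier, IFIT1 and IFIT3 bind viral RNA as a complex, GBP2 and GBP3 are interferon-inducible GTPases that attack intracellular pathogens, and BST2 (tetherin) holds budding virus particles on the cell membrane.

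The ISRE and GAS core letters were looked up in the 250 bases before the start site of each gene (GRCm39 sequence, GENCODE M39 canonical transcripts), to show which members carry them close to the start. The ISRE was searched as GAAA, any 2 bases and GAAA, and the GAS as TTCNNNGAA, both on either strand. The ISRE letters were present in 5 of the 9 genes, against 3.32% of 21770 promoters of protein-coding genes, and the GAS letters in 2 of the 9, against 7.70% of promoters. The windows of *Irf7*, *Gbp2* and *Gbp3* did not hold these letters. The *Gbp3* window, chr3:142265863-142266112, precedes the canonical transcript but lies inside the annotated gene, which starts at 142265731. The bases before that gene start were not searched. The matches below lie upstream of the genes, at chr10:128106135-128106164 (*Stat2*, plus strand), chr11:53660741-53660769 (*Irf1*, plus), chr4:156285328-156285357 (*Isg15*, minus), chr19:34618194-34618223 (*Ifit1*, plus), chr19:34560797-34560826 (*Ifit3*, plus), chr8:71990221-71990250 (*Bst2* ISRE, minus) and chr8:71990234-71990262 (*Bst2* GAS, minus). They read 5′ to 3′ on the strand of the gene, with the matching letters in capitals, so that an ISRE on the opposite strand appears as TTTC, 2 bases and TTTC.
Stat2 ISRE: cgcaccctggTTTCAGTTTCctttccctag
Irf1 GAS: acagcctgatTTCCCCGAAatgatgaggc
Isg15 ISRE: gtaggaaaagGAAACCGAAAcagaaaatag
Ifit1 ISRE: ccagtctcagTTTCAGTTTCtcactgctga
Ifit3 ISRE: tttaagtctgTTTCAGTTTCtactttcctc
Bst2 ISRE: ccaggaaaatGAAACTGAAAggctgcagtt
Bst2 GAS: tctaggggcaTTCCAGGAAaatgaaactg
*Ifit1* and *Ifit3*, neighbours on chromosome 19, had the same 10 letters at the printed site, as did *Stat2* and, on the opposite strand, *Bst2*. *Ifit1* and *Ifit3* each had a second match, at chr19:34618175-34618204 and chr19:34560763-34560792. The *Isg15* window held 3 ISRE matches, each overlapping its neighbour, and in *Bst2* the GAS letters overlapped the first of 2 ISRE matches. A match of letters is a description of the sequence and does not show that a factor binds there.

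Libraries held 69636600 to 85899079 UMIs, and 24648 barcodes passed the quality filters, with a median of 7589 to 8202 UMIs per library. Of these, 18403 were assigned to 1 cell type by marker genes, 2756 carried markers of more than 1 type and 3489 carried too few. The names used below stand for these marker gates: ECs with arterial, sinusoidal and other ECs among them, diaphyseal and metaphyseal mesenchymal stromal cells (dpMSCs and mpMSCs), osteoblasts (OBs), chondrocytes (CHOs), smooth muscle cells and pericytes (SMCs) and fibroblasts. In ECs, *Lats2* stood at 90.7 and 94.7 CPM (UMIs scaled to the summed UMIs of the cells of that type in the library) in the mutants and 131 and 121 CPM in the controls, and the *CreERT2* transgene at 53.3 and 48.6 against 0.670 and 0.857 CPM, as the labels give the genotypes. Any pair of libraries shared 6 to 16 barcodes. The share of UMIs estimated as free RNA was lower in mutants (1.09 to 2.41% across cell types) than in controls (1.52 to 5.57%).

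In control mice, all 9 genes had their highest level in ECs or dpMSCs and their lowest in OBs or CHOs. Levels are compared within a gene only. Arterial ECs were highest for *Stat2* (70.5 and 73.2 CPM in the controls), *Irf7* (38.4 and 44.3), *Isg15* (103 and 101, overlapped by dpMSCs with 88.3 and 105), *Ifit3* (36.7 and 36.6), *Gbp3* (37.3 and 34.4) and *Bst2* (345 and 327). For *Irf1* dpMSCs led with 92.7 and 95.3 CPM, but arterial ECs (90.0 and 95.3) and sinusoidal ECs (87.1 and 93.9) overlapped with them. For *Ifit1* dpMSCs led with 43.5 and 43.7 CPM, above arterial ECs with 36.1 and 36.9, and *Gbp2* was highest in the ECs that were neither arterial nor sinusoidal (69.2 and 47.8 CPM), overlapping with arterial ECs (45.9 and 60.3). Of the 8 steps between neighbouring types in the order of a gene, 1 (*Bst2*) to 4 (*Ifit3* and *Gbp2*) were between types whose 2 control libraries overlapped. The sinusoidal ECs, next to blood-forming marrow, had less *Isg15* (37.5 and 37.7 CPM) and *Ifit1* (6.02 and 10.8 CPM) than arterial ECs in each control library.

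**Figure D1:**
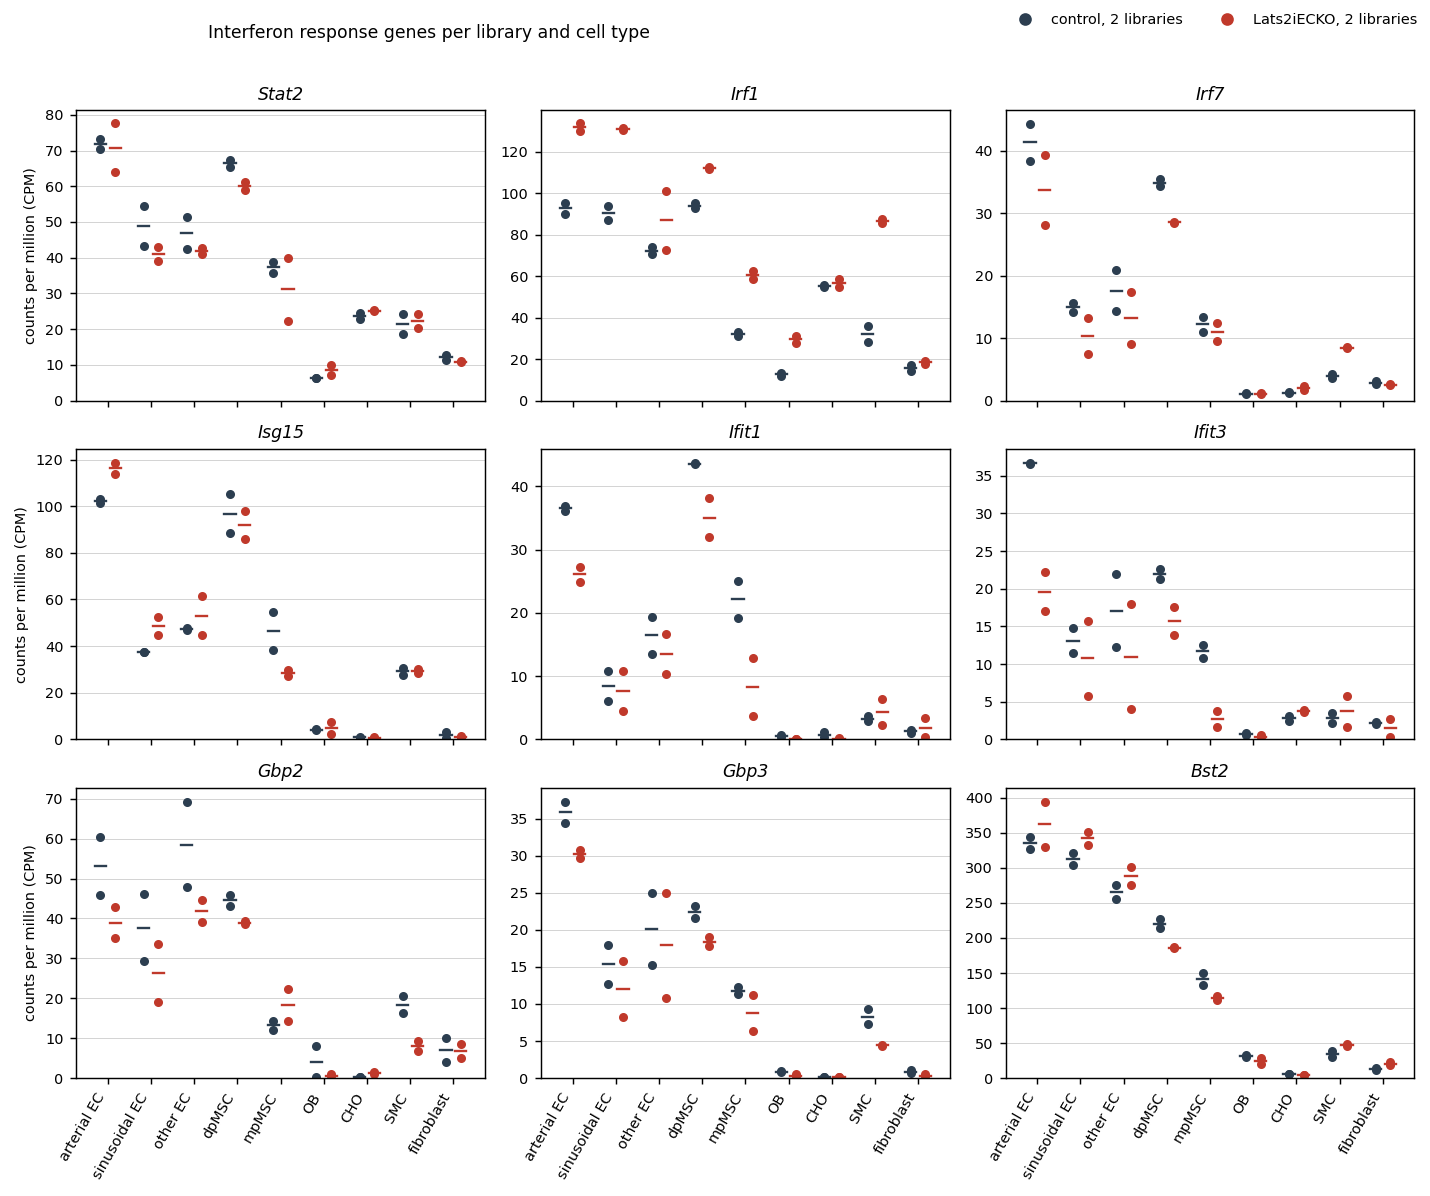
Levels of the 9 genes in CPM (y axes, from 0) in 9 marker-gated cell types (x axes), with a point for each library (dark, controls; red, mutants) and a line at the mean of each genotype. Most genes peak in ECs and dpMSCs and are near 0 in OBs, CHOs or fibroblasts, while *Irf1* keeps 54.7 and 55.5 CPM in the CHOs of controls.

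The central comparison asked whether the loss of *Lats2* in ECs changed these genes, in ECs and in the cells around them. *Irf1* was higher in mutants in 7 of the 10 cell types and classes tested, *Isg15* was higher in ECs, and the other calls were few, small or went both ways. Of 90 combinations of gene and cell type, 77 had a mean of at least 10 UMIs over the 4 libraries and were tested, 13 did not reach that level, and 13 passed at an adjusted p of 0.05, 10 of them higher and 3 lower in mutants. The higher calls include *Gbp2* in CHOs, which reached that level through the mutant libraries. The test was edgeR's quasi-likelihood test on the summed UMIs of 2 mutant and 2 control libraries, adjusted by the Benjamini-Hochberg method over all genes tested in a type. The arterial, sinusoidal and other ECs are parts of the ECs, so that their calls are not separate evidence.

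These counts stand against a large background of genes that differed between the genotypes. Of all genes tested in ECs, 15.8% were called higher and 15.5% lower in mutants, and in arterial ECs 10.2% and 8.79%. The shares were 7.9% and 6.56% in sinusoidal ECs and 6.72% and 6.38% in other ECs. In dpMSCs they were 10.4% and 8.93%, in mpMSCs 4.72% and 2.99%, and in OBs 4.54% and 1.84%. CHOs had 21.6% and 20%, SMCs 14.2% and 12.5%, and fibroblasts 2.23% and 1.27%. Of the 9 members in ECs, 2 were called higher and 0 lower, and in CHOs 1 of 7 tested was called, shares that lie near or under the background. The CHO call was *Gbp2*, which reached the count filter through the mutant libraries. In SMCs 3 of 7 were called and in OBs 1 of 5, and *Irf1* was part of both counts. Levels without overlap between the genotypes were common too. Both mutants lay above both controls for 27.7% of all genes tested in ECs, 26% in dpMSCs, 20.4% in mpMSCs and 28.9% in OBs. In CHOs it was 31%, in SMCs 29.6% and in fibroblasts 18.8%. Both lay below both controls for 40.4% in ECs, 34.2% in dpMSCs, 32.1% in mpMSCs and 21% in OBs. In CHOs it was 42.9%, in SMCs 33.6% and in fibroblasts 29.8%.

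*Irf1*, the regulatory factor that interferon-γ and inflammatory signals induce within minutes to hours, moved most widely. In ECs it stood at 111 and 119 CPM in the mutants and at 84.1 and 89.7 CPM in the controls. Both mutants lay above both controls (log2 fold change 0.48 ± 0.0787 (SE, n = 2 and 2), edgeR adjusted p = 0.003). In arterial ECs the mutants had 130.1 and 134 CPM and the controls 90.0 and 95.3 (0.57 ± 0.111, edgeR adjusted p = 0.00332). In sinusoidal ECs the mutants had 131 and 130.3 CPM and the controls 87.1 and 93.9 (0.60 ± 0.116, edgeR adjusted p = 0.00859), a call that ended without control 1 (0.54, edgeR adjusted p = 0.102). The genotypes were apart in both classes, whereas in the other ECs 1 mutant library (72.5 CPM) lay within the range of the controls (70.7 and 73.9 CPM) and the second at 101 CPM, and the difference was not called (0.37, edgeR adjusted p = 0.223).

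Among the cells that kept *Lats2*, the *Irf1* difference ran from none called to the largest of all types. SMCs held 85.8 and 87.4 CPM in mutants and 35.8 and 28.5 CPM in controls. The mutant libraries were thus well above those of controls (log2 fold change 1.46 ± 0.145, edgeR adjusted p = 1.61e-06), with 0.95 under a stricter filter on barcodes and 2.04 without clusters of cells that came almost wholly from 1 genotype. OBs rose from 13.5 and 11.7 CPM in controls to 27.9 and 31.2 CPM in mutants (1.19 ± 0.158, edgeR adjusted p = 0.000587), and without control 2 the value was 1.08 with an edgeR adjusted p of 0.0614. The log2 fold change was 0.76 when OBs were defined by clusters of cells.

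In mpMSCs *Irf1* stood at 62.3 and 58.5 CPM in mutants and 33.0 and 31.0 CPM in controls (log2 fold change 0.99 ± 0.196, edgeR adjusted p = 0.00847), and leaving out control 2 ended that call (0.95, edgeR adjusted p = 0.0502). The gate's own 7 markers summed to 4736 and 5094 CPM in mutants against 8269 and 8142 in controls, and their part in the *Irf1* difference was not tested. The dpMSCs, which in controls expressed about as much *Irf1* as arterial ECs, changed less, with 111 and 113 CPM against 92.7 and 95.3 CPM (0.29 ± 0.0704, edgeR adjusted p = 0.00814). That call ended without control 1 (0.27, edgeR adjusted p = 0.0823). CHOs overlapped, with 58.5 and 54.8 CPM in mutants and 54.7 and 55.5 in controls (0.11, edgeR adjusted p = 0.165). In fibroblasts the mutants had 17.9 and 19.3 CPM and the controls 14.1 and 17.2, both mutants above both controls by less than the controls differed from each other (0.30, edgeR adjusted p = 0.471). With DESeq2 in place of edgeR, *Irf1* passed in 3 of the 10 types and classes, ECs, OBs and SMCs.

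**Figure D2:**
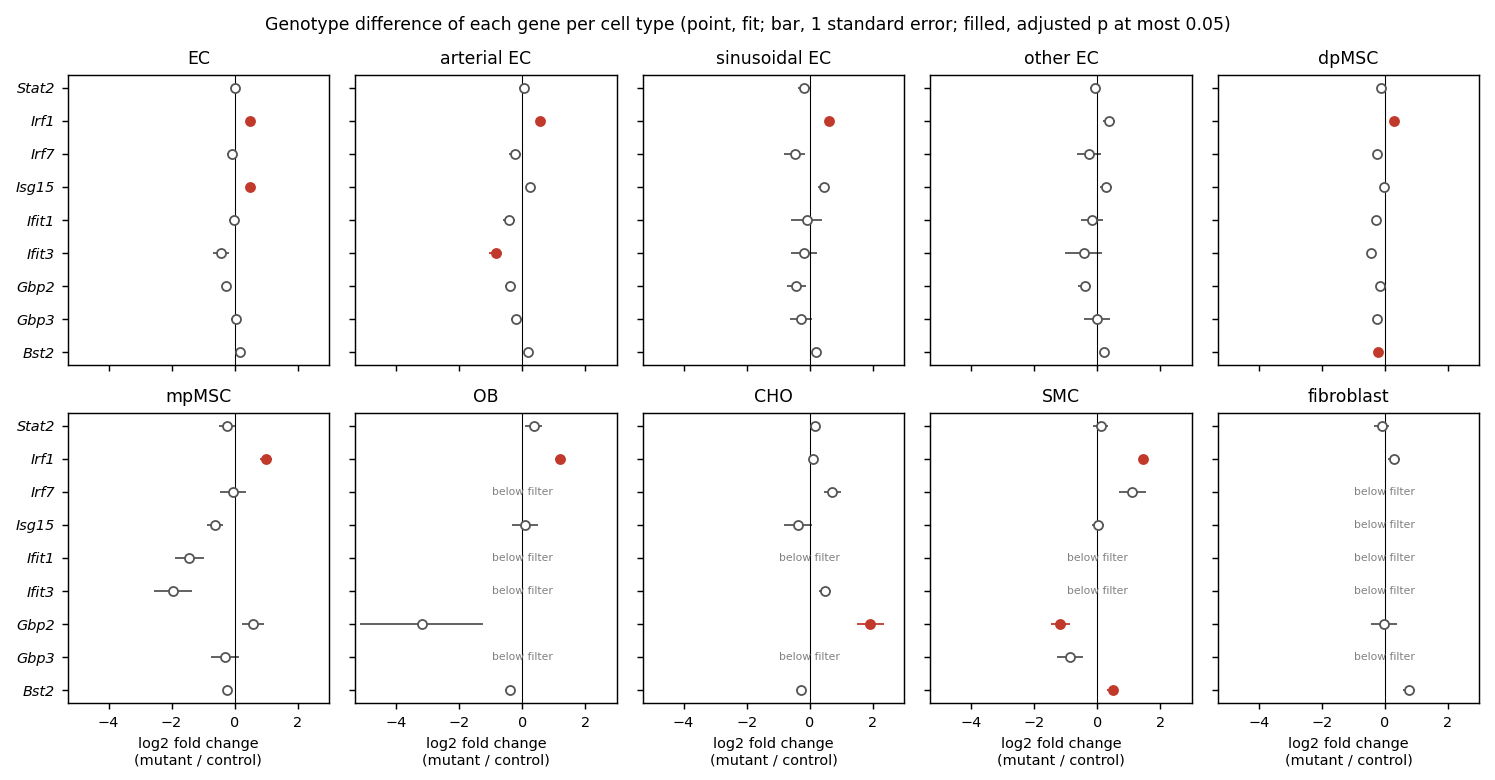
Log2 fold changes of the 9 genes, mutants against controls (x axes), in the 10 cell types and classes (panels), with bars of 1 SE. Filled red points passed the test at an adjusted p of 0.05, and genes under the filter on low counts carry no point. *Irf1* is filled in 7 panels, with its largest value in SMCs (1.46), and *Isg15* is filled in the EC panel (0.48).

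Genes of the immediate-early and stress response, which many tissues switch on within minutes of injury or dissociation, also differed between the genotypes in these cells, and no test links them to *Irf1*. A list of 16 such genes (*Fos*, *Fosb*, *Jun*, *Junb*, *Jund*, *Egr1*, *Atf3*, *Ier2*, *Ier3*, *Nr4a1*, *Dusp1*, *Zfp36*, *Btg2*, *Socs3*, *Hspa1a* and *Hspa1b*) was drawn up after the fits had been seen. In ECs their summed level was 7564 and 7126 CPM in mutants against 5050 and 4893 in controls, and 14 of the 16 were called higher and 2 lower. The 2 lower genes, *Hspa1a* and *Hspa1b*, were also lower in sinusoidal and other ECs, CHOs, SMCs and fibroblasts. All 16 were higher in mpMSCs, where the sum was 5535 and 5107 against 1708 and 1685 CPM, and 15 in dpMSCs, with 14 each in arterial ECs, OBs and SMCs, 12 in sinusoidal and 6 in other ECs. In CHOs, where *Irf1* was not called, 12 of the 16 were higher, and in fibroblasts 1 was higher and 3 lower, with sums of 5564 and 5686 CPM in mutants and 5792 and 6527 in controls. In every type 0 of the 16 were at 0. *Irf1* was also above controls in the near-empty barcodes, which hold free RNA, at 59.5 and 59.9 against 44.7 and 38.1 CPM. A list of 7 erythroid genes, mostly hemoglobins, was higher in both mutants than in both controls in all 10 types and classes, from 481 to 1079 CPM in mutants and from 163 to 653 in controls, with 583 and 777 against 315 and 274 CPM in mpMSCs. The part of the stress response, of erythroid RNA and of free RNA in the *Irf1* difference was not tested beyond subtracting the free RNA, after which the *Irf1* calls remained 7 of 10. The free RNA share was estimated from hemoglobin UMIs and was 1.09 to 5.57%. The subtraction thus removed little *Irf1* and could hardly have changed these calls.

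**Figure D3:**
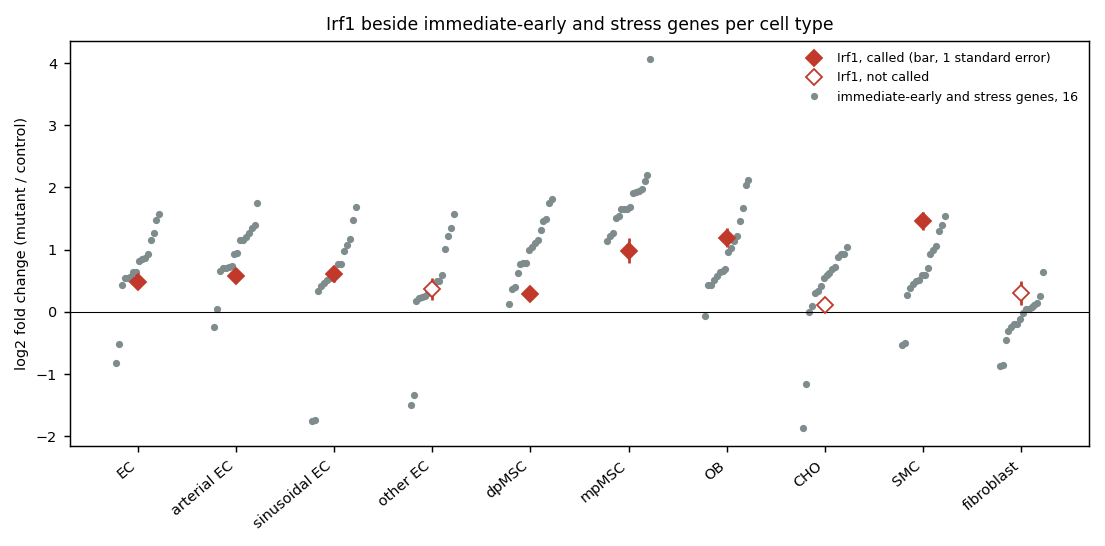
Log2 fold changes, mutants against controls (y axis), of *Irf1* (diamonds with 1 SE, filled where called) and of 16 immediate-early and stress genes (grey dots) in each cell type (x axis). In most types the grey dots lie mainly above 0. In SMCs and OBs *Irf1* (1.46 and 1.19) lies above the median of the 16 (0.59 and 0.82), and in CHOs (0.11) below it (0.57).

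The remaining transcription factors were not called in any type by edgeR or DESeq2, with 1 (*Stat2*) and 3 (*Irf7*) types at an unadjusted edgeR p under 0.05. Other settings of edgeR called *Stat2* in CHOs (a filter on 20% of cells, log2 fold change 0.19) and *Irf7* in dpMSCs (-0.34) and SMCs (1.00) with barcodes of 2 types kept and in CHOs (0.71) with a replicate block. *Stat2*, which carries the type I interferon signal, stood at 57.0 and 49.4 CPM in the ECs of mutants and at 58.5 and 51.4 in those of controls, and its log2 fold changes in the 10 types and classes ran from -0.23 (mpMSCs) to 0.36 (OBs). The genotypes overlapped in ECs, and in dpMSCs both mutants (59.0 and 61.1 CPM) lay under both controls (65.5 and 67.3) without passing. Of all genes tested in dpMSCs, 34.2% lay under the controls in this way. *Irf7*, which drives the second wave of type I interferon, had 18.1 and 23 CPM against 21.3 and 24.9 in ECs and 28.6 and 28.5 against 34.3 and 35.4 in dpMSCs. In SMCs it had 8.51 and 8.40 CPM in mutants and 3.65 and 4.27 in controls, apart from each other but not called (1.11, edgeR adjusted p = 0.0683). *Irf7* reached the count filter in SMCs through the mutant libraries, in which it was high. OBs and fibroblasts had too few *Irf7* UMIs for a test, with at most 3.06 CPM.

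*Isg15*, the ubiquitin-like modifier, was higher in the ECs of mutants, with 75.9 and 77.9 CPM against 59.1 and 57.6 CPM in controls. The libraries of each genotype lay close together (log2 fold change 0.48 ± 0.0711, edgeR adjusted p = 0.00205), and the call held under all 15 alternatives. None of the 3 EC classes passed alone, with log2 fold changes of 0.25 (arterial), 0.44 (sinusoidal) and 0.27 (other), all under that of ECs as a whole. The make-up of the gate differed too, since sinusoidal ECs, in which *Isg15* was lower than in arterial ECs, were 110 of 539 and 120 of 654 ECs in mutants and 344 of 826 and 333 of 812 in controls. How much of the EC difference came with that shift was not tested beyond the values in the classes. Arterial ECs had 119 and 114 CPM in mutants against 103 and 101 in controls, and sinusoidal ECs 44.6 and 52.4 against 37.5 and 37.7, while in the other ECs 1 mutant (44.6) fell under both controls (47.8 and 47.0) and the second had 61.4. *Isg15* was not called in the other types, where dpMSCs had 86.0 and 97.7 CPM against 88.3 and 105 and SMCs 28.3 and 30.3 against 30.7 and 27.8. mpMSCs had 27.2 and 29.9 against 38.3 and 54.5 CPM, with the mutants lower but not called (-0.62, edgeR adjusted p = 0.198). With types defined by clusters *Isg15* was called higher in OBs (1.95), against 0.09 (edgeR adjusted p = 0.943) by markers. Clusters gave 236 and 266 OBs in mutants and 655 and 681 in controls. Markers gave 135 and 157 in mutants and 643 and 677 in controls. The part of this change in the call was not tested. In near-empty barcodes *Isg15* stood at 30.7 and 26.4 CPM in mutants and 17.8 in both controls, levels below those of the ECs of the same libraries.

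The IFIT genes were at or under their control levels in the types where they were best expressed. *Ifit3* fell in arterial ECs, from 36.7 and 36.6 CPM in controls to 17.0 and 22.2 CPM in mutants (log2 fold change -0.84 ± 0.21, edgeR adjusted p = 0.0146). Both controls were nearly equal and both mutants well under them, and leaving out mutant 1 ended the call (-0.65, edgeR adjusted p = 0.12). In ECs as a whole the mutants had 9.93 and 19.0 CPM and the controls 21.3 and 20.3 (not called, and called at -0.99 without mutant 2). In dpMSCs it had 13.8 and 17.6 CPM against 21.3 and 22.6, where leaving out mutant 2 also made a call (-0.62), as did a replicate block (-0.43), the stricter barcode filter (-0.50), barcodes of 2 types kept (-0.47) and free RNA subtracted (-0.48). *Ifit3* shares sequence with neighbouring copies, and 7.04% of its entries were fractions left by sharing reads between genes, more than for any other member.

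*Ifit1* was not called in any type by edgeR or DESeq2, with 3 types at an unadjusted edgeR p under 0.05. In mpMSCs it had 12.8 and 3.73 CPM in mutants against 19.2 and 25.1 in controls (-1.44, edgeR adjusted p = 0.0784), and *Ifit3* 1.60 and 3.73 against 10.8 and 12.5 (-1.95, edgeR adjusted p = 0.0679). For both genes the mutants lay under the controls, as 32.1% of all genes tested in mpMSCs did. *Ifit1* in the lower mutant library (3.73 CPM) and *Ifit3* in both mutant libraries held 3 UMIs or fewer. *Ifit3* thus reached the count filter in mpMSCs through the controls. Leaving out mutant 1 made the *Ifit1* difference a call in mpMSCs (-2.48) and dpMSCs (-0.41), where the libraries had 38.1 and 32.0 CPM against 43.5 and 43.7. Other settings of edgeR called *Ifit1* in mpMSCs with a stricter barcode filter (-2.0025), types defined by clusters (-1.56) or barcodes of 2 types kept (-1.60), and *Ifit3* there with the latter 2 (-1.68, edgeR adjusted p = 0.0248, and -1.71, edgeR adjusted p = 0.036). In dpMSCs the stricter filter (-0.32) and barcodes of 2 types kept (-0.37) called *Ifit1*. Neither gene was well measured in OBs, SMCs and fibroblasts. *Ifit1* was at 0 in both mutant OB libraries, where 3 UMIs would have been the limit of detection, and at 0.753 and 0.386 CPM in the controls, and it was not tested there.

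Of the guanylate-binding proteins, *Gbp2* fell in one type and rose in another, while *Gbp3* was called under 1 other setting alone. *Gbp2* fell in SMCs, from 20.5 and 16.4 CPM in controls to 9.25 and 6.72 in mutants (log2 fold change -1.17 ± 0.31, edgeR adjusted p = 0.01). The genotypes did not overlap, but the call ended without control 1 (-1.02, edgeR adjusted p = 0.0925) and without clusters of almost 1 genotype (-0.86, edgeR adjusted p = 0.133). In CHOs *Gbp2* rose from 0.346 and 0.339 CPM (6 UMIs in each control library) to 0.926 and 1.61 CPM (1.92 ± 0.433, edgeR adjusted p = 0.00714). Both levels are among the lowest of the gene in any type, and without mutant 2 the call ended (1.49, edgeR adjusted p = 0.0573). With 6 UMIs in each control, *Gbp2* reached the filter of a mean of 10 UMIs through the mutant libraries, in which it was high. Of the gated CHOs, 778 barcodes lay in a cluster with 1555 barcodes of mutants and 6 of controls. Without such clusters *Gbp2* no longer reached that filter and so had no fit. The log2 fold change ran from 1.27 with CHOs defined by clusters to 3.29 with free RNA subtracted.

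In ECs *Gbp2* stood at 37.8 and 36.5 CPM in mutants and 43.6 and 50.4 in controls, the mutants being lower without passing (-0.26, edgeR adjusted p = 0.0941), and it was called at -0.37 without control 1. In the other ECs, with 44.6 and 39 against 69.2 and 47.8 CPM, it was called without control 2 (-0.66). In OBs its level rested on control 2, with 8.12 CPM from 105 UMIs in 10 barcodes, against 0.167 CPM in control 1 and 1.05 and 0 CPM in the mutants, and it was called there without control 1 (-4.11), with no gene filter (-3.26) and with a replicate block (-3.21). *Gbp3*, the neighbour of *Gbp2* on chromosome 3, was not called in any type by edgeR or DESeq2, with 1 type at an unadjusted edgeR p under 0.05. It had 18.7 and 24.6 CPM against 22.8 and 21.9 in ECs, where the genotypes overlapped, 17.8 and 19.0 against 23.2 and 21.6 in dpMSCs, and 4.44 and 4.37 against 7.31 and 9.26 in SMCs. Another setting of edgeR called it lower in SMCs, with types defined by clusters (-0.98, edgeR adjusted p = 0.0463).

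*Bst2*, the tetherin gene, fell in one type and rose in another. In dpMSCs it fell from 214 and 227 CPM in controls to 188 and 185 in mutants, a small difference beyond the spread of the libraries (log2 fold change -0.21 ± 0.0674, edgeR adjusted p = 0.04). That call ended on leaving out mutant 2 (-0.20, edgeR adjusted p = 0.0755), control 1 (-0.25, edgeR adjusted p = 0.0904) or control 2 (-0.17, edgeR adjusted p = 0.286). In SMCs *Bst2* rose from 30.0 and 39.2 CPM to 46.2 and 48.4 CPM (0.48 ± 0.169, edgeR adjusted p = 0.0453). It was no longer called without mutant 1 (0.52), mutant 2 (0.46) or control 1 (0.29). Its log2 fold change was 0.0029 (edgeR adjusted p = 0.996) without clusters of almost 1 genotype.

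In fibroblasts *Bst2* stood at 19.3 and 22.3 CPM in mutants and 14.1 and 11.3 in controls. The genotypes were apart and the value just missed the threshold (0.77 ± 0.199, edgeR adjusted p = 0.0521), which it passed with another gene filter (0.77) or none (0.77), a replicate block (0.77) or free RNA subtracted (0.84). In ECs the levels were 344 and 318 CPM against 305 and 312 (0.18, edgeR adjusted p = 0.0889), and in OBs 19.4 and 28.4 against 32.4 and 29.9, with the mutants lower and called only without mutant 2 (-0.70). Other settings called *Bst2* lower in mpMSCs, with types defined by clusters (-0.41) or barcodes of 2 types kept (-0.50), and in CHOs with barcodes of 2 types kept (-0.40).

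The SMC values need the make-up of that gate beside them. The summed level of the 9 SMC markers was 7604 and 8371 CPM in mutants against 13643 and 14176 in controls, and 1 cluster of cells, from which 298 barcodes were gated as SMCs, held 547 barcodes of mutants and 7 of controls. The leukocyte list also moved in SMCs, at 120.0 and 111 CPM against 16.8 and 26, but nearly all of that sum was *Fcer1g* (116 and 104 CPM against 11.7 and 19.9), while *Ptprc*, which encodes the defining leukocyte antigen CD45, was at most 0.672 CPM. In ECs the same list stood at 52.6 and 49.7 CPM in mutants against 147 and 160 in controls, again mainly *Fcer1g*, with *Ptprc* at most 0.195 CPM. The markers of dpMSCs were higher in the EC gate of mutants, at 451 and 469 CPM against 205 and 209 in controls, with 4 of the 7 at 10 CPM or more in every library. They stood at 502 and 513 against 260 and 218 CPM in arterial ECs, 191 and 345 against 159 and 164 in sinusoidal ECs and 567 and 495 against 228 and 293 in other ECs. The markers of SMCs were lower in the EC gate of mutants, at 323 and 319 against 664 and 685 CPM. The 12 general MSC markers were not higher in the EC gate of mutants, at 2642 and 2609 CPM against 3135 and 3012 in controls. Which genes or cells the dpMSC sum came from was not tested. The part of these marker differences in the EC values of *Irf1*, *Isg15* and the wider lists was not tested either. The markers of dpMSCs stood in the SMC gate at 1562 and 1812 CPM in mutants against 500.4 and 563 in controls, with 3 of the 7 markers at 10 CPM or more in every library. The general MSC markers overlapped in the SMC gate, at 3311 and 3597 CPM in mutants and 3560 and 3473 in controls. How far the make-up of the gate accounts for the SMC values was not tested beyond leaving the clusters out, as given for each gene above.

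Whether the genotype difference of a gene was itself different between types was tested in a joint fit of the 7 main types, each against the mean of the others. The fit had a term for each library and otherwise took the type sums of a library as separate. Of 63 combinations, 7 passed. The log2 effect on *Irf1* was lower in CHOs (-0.64 ± 0.0813, edgeR adjusted p = 6.95e-06) and dpMSCs (-0.47 ± 0.0893, edgeR adjusted p = 0.00386) and higher in SMCs (0.93 ± 0.156, edgeR adjusted p = 0.000223). Every omission of a library ended the dpMSC call, with values of -0.50 to -0.44. The value in SMCs was 0.40 (edgeR adjusted p = 0.181) under the stricter barcode filter.

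The effect on *Isg15* was higher in ECs (0.78 ± 0.229, edgeR adjusted p = 0.0219), that on *Ifit3* higher in CHOs (1.27 ± 0.431, edgeR adjusted p = 0.0443), and that on *Bst2* lower in OBs (-0.59 ± 0.161, edgeR adjusted p = 0.0348) and higher in fibroblasts (0.87 ± 0.208, edgeR adjusted p = 0.023). These 4 calls were fragile. Leaving out mutant 2 (0.75) or control 2 (0.51) ended that for *Isg15*, control 1 (1.10) or control 2 (1.44) that for *Ifit3*, and mutant 1 (0.93), mutant 2 (0.82) or control 2 (0.66) that for *Bst2* in fibroblasts. For *Bst2* in OBs every omission did, with -0.37 without mutant 1 and -0.91 without mutant 2 as the extremes. Beside these stand the shares of all 14982 genes whose effect differed from the other types, 15.7% in ECs, 17.8% in CHOs, 10.4% in SMCs, 5.43% in OBs, 3.04% in dpMSCs, 2.94% in fibroblasts and 1.62% in mpMSCs. The mean of the other types for *Ifit3* took in OBs, SMCs and fibroblasts, where the gene was under the count filter of the single types, so that the contrast rests in part on types with hardly any UMIs. The same holds for *Isg15*, which was under that filter in fibroblasts, at 1.09 CPM or less in CHOs and at 2.43 to 7.36 CPM in OBs, and its contrast exceeds the EC log2 fold change of 0.48. *Ifit1* and *Gbp2* had SEs of 0.585 or more in every type in this fit, wider than most differences of the other genes.

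The shares of single ECs with several members at once overlapped between genotypes at equal depth. Barcodes of fewer than 3000 UMIs were left out and the others thinned to that number, so that the shares are of the deeper cells. This left out 77 and 85 ECs of mutants and 163 and 149 of controls. Among the ECs that remained, 13.4% and 13.5% of ECs in mutants and 12.4% and 14.0% in controls carried UMIs of at least 3 of the 9 genes. Sinusoidal ECs had 11% and 13% against 7.72% and 7.82%, and other ECs the opposite, with 7.95% and 7.97% against 14.0% and 16.3%, where 40 and 46 barcodes of mutants and 63 and 69 of controls had been left out. In dpMSCs the shares were 13.7% and 13.9% against 15.4% and 15.2%. In OBs, CHOs and fibroblasts the share was 0 to 0.709%, and in gated leukocytes 0 to 1.65%. With 2 libraries per genotype the exact permutation test cannot give a p below 1 in 3. Without thinning the ECs of mutants, which had more UMIs per cell, gave 41.9% and 42.7% against 33.1% and 34.5%.

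The wider interferon pathway did not move as a block. None of 8 interferon genes passed the filter in any type, so that no ligand could be compared. Of 23 receptor and signalling genes, 4 were higher and 5 lower among 21 tested in ECs, 8 and 0 of 21 in CHOs and 8 and 0 of 19 in SMCs. The EC counts lie near the shares over all genes, 15.8% higher and 15.5% lower. Those shares were 21.6% and 20% in CHOs and 14.2% and 12.5% in SMCs. The CHO gate's own markers summed to 23514 and 23153 CPM in mutants against 32369 and 32668 in controls. A cluster of 1555 barcodes of mutants and 6 of controls held 778 gated CHOs. Their part in the CHO counts of this and the other lists was not tested. The most widely called was *Socs3*, an inhibitor of JAK signalling, higher in 9 of 10 types and classes. In ECs it had 293 and 263 CPM in mutants against 116 and 126 in controls (1.28, edgeR adjusted p = 5.8e-05), while *Jak1* was lower there (338 and 340.2 against 541 and 525 CPM) and *Jak2* higher (135 and 142 against 110.2 and 113).

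Antiviral effectors were called lower more often than higher in ECs and dpMSCs, with 3 higher and 14 lower of 45 in ECs and 2 higher and 21 lower of 46 in dpMSCs. Over all genes 15.5% were called lower in ECs and 8.93% in dpMSCs. Without control 1, 6 were called lower in ECs and 12 in dpMSCs, and without mutant 1, 9 in ECs. Median log2 fold changes were -0.22 and -0.37, against medians near 0 over all genes. *Rsad2* (viperin) fell in ECs to 37.4 and 39 CPM from 120.3 and 118 (-1.56, edgeR adjusted p = 1.71e-05), and was lower too in the arterial, sinusoidal and other ECs. *Ifitm2* and *Ifitm3*, which block virus entry at membranes, rose in ECs, *Ifitm2* from 451 and 463 to 807 and 783 CPM. In dpMSCs the RNA sensor *Ifih1* fell from 55.6 and 55.4 CPM to 33.0 and 35.3. The OB markers also fell in the dpMSC gate, from 3912 and 3757 CPM in controls to 2632 and 2685 in mutants. The mpMSC markers fell there from 824 and 845 CPM to 604 and 536. Their part in the dpMSC values was not tested. Of 33 antiviral effectors tested in mpMSCs 0 rose and 5 fell, where 2.99% of all genes were lower. In arterial ECs 2 rose and 9 fell of 41, in sinusoidal ECs 2 and 3 of 37 and in other ECs 2 and 4 of 38. Of all genes 8.79%, 6.56% and 6.38% were lower in these classes. In OBs 3 rose and 0 fell of 24, where 4.54% of all genes were higher and 1.84% lower, and in CHOs 5 rose and 2 fell of 34, where 21.6% were higher and 20% lower. In SMCs 6 rose and 6 fell of 33, near the 14.2% and 12.5% of all genes, among them *Ifi204*, a DNA sensor, with 33.9 and 31.1 against 7.67 and 6.76 CPM.

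Further interferon-inducible GTPases, relatives of *Gbp2* and *Gbp3*, were lower in every type with a call. Of those tested, 7 of 12 fell in ECs, 5 of 12 in arterial ECs, 5 of 9 in dpMSCs and 4 of 7 in SMCs, and 0 rose. Calls were 0 of 12 in sinusoidal and in other ECs, 0 of 7 in mpMSCs, 0 of 6 in OBs, 0 of 5 in CHOs and 0 of 3 in fibroblasts. Over all genes 15.5% were lower in ECs, 8.79% in arterial ECs, 8.93% in dpMSCs and 12.5% in SMCs. *Gbp4* in ECs went from 56.3 and 56.6 CPM to 32.0 and 37.9, and *Tgtp2* from 48.3 and 58.2 to 24.8 and 29.1. Antigen presentation genes were higher in 7 and lower in 1 of 18 in ECs, 7 and 1 of 18 in CHOs and 7 and 1 of 16 in SMCs, with 0 and 6 of 18 in both MSC types and 0 and 3 of 18 in OBs. In arterial, sinusoidal and other ECs 3, 1 and 1 of 18 were higher, where 10.2%, 7.9% and 6.72% of all genes were. Over all genes, 15.8% were called higher in ECs, 21.6% in CHOs and 14.2% in SMCs, and 8.93% lower in dpMSCs, 2.99% in mpMSCs and 1.84% in OBs. Whether the list differed between types was not tested. The 7 higher in ECs were 3 without mutant 2 or without control 1. *H2-T23* rose in ECs from 115 and 107 CPM to 151 and 163, and *B2m* in SMCs from 314 and 278 to 450.2 and 479. In mpMSCs *H2-Q6* fell from 115 and 123 to 42.9 and 39.8 CPM. With DESeq2 the numbers of antiviral genes called lower were 4 in ECs and 9 in dpMSCs, and 3 GTPases were called lower in ECs.

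**Figure D4:**
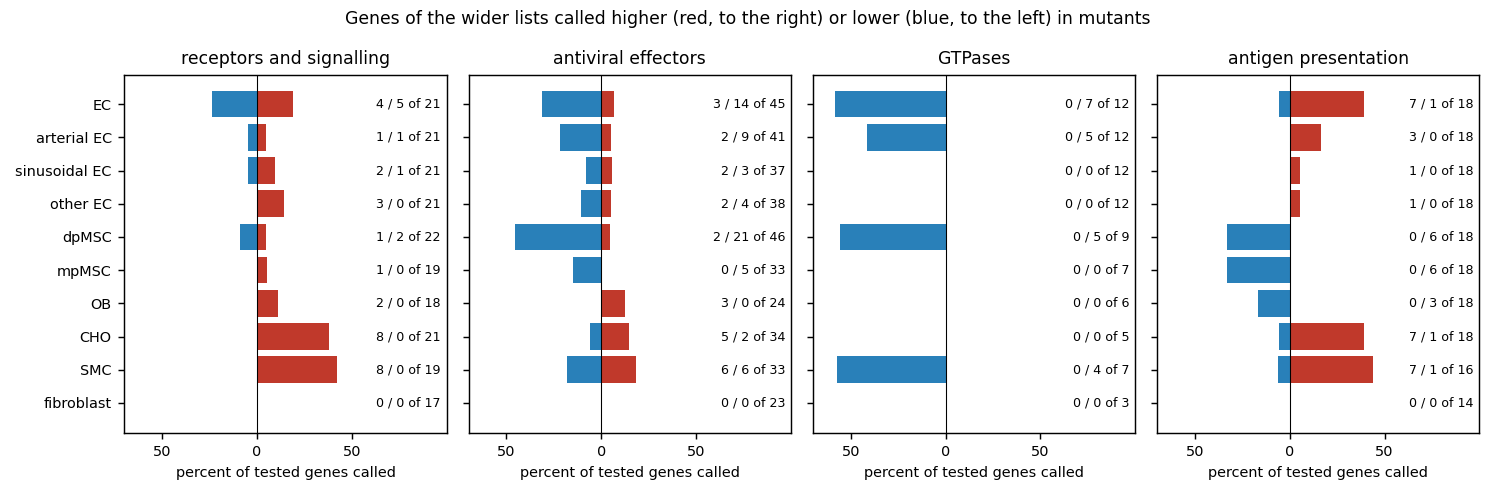
Share of the tested genes of 4 wider interferon lists called higher (red, right of 0) or lower (blue, left of 0) in mutants, in percent (x axis), in 10 cell types and classes, with counts of genes printed beside each bar. The GTPases show only lower calls (7 of 12 in ECs), the antiviral effectors mostly lower calls in ECs and dpMSCs, and antigen presentation genes mostly higher calls in ECs, CHOs and SMCs.

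Across 9 types and classes by 4 libraries, the gene whose level ran most like that of *Isg15*, *Irf7*, *Ifit1*, *Ifit3*, *Gbp2* or *Gbp3* was in each case another gene of the interferon lists. The rank correlation over these 36 points, among 9839 genes, was 0.952 for *Isg15* with *Psmb9* and 0.972 for *Irf7* with *Tap2*. It was 0.950 for *Ifit1* with *Oasl2*, 0.909 for *Ifit3* with *Tap2*, 0.927 for *Gbp2* with *Erap1* and 0.958 for *Gbp3* with *Xaf1*. Genes outside the lists followed closely for *Irf7* (*Enpp4*, 0.968), *Ifit1* (*Gulp1*, 0.94), *Ifit3* (*Apbb2*, 0.902) and *Gbp2* (*Eps15*, 0.923). For *Isg15* and *Gbp3* the genes ranked 2 and 3 were members or on the lists too. First for *Irf1* was *Stat3* (0.911), for *Stat2* *Prrg1* (0.957) and for *Bst2* *Dram2* (0.946), which were not on these lists. With the other members *Irf1* had values of 0.661 (*Gbp2*) to 0.848 (*Stat2*), and *Bst2* of 0.755 (*Ifit3*) to 0.880 (*Isg15*). The points share libraries and cell types, so these values describe a common pattern of levels over types and carry no test.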

How the data were processed

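Single-cell libraries of 2 *Lats2*iECKO mutants and 2 controls were analysed. Per the labels and the study's methods, the authors trimmed reads with cutadapt 3.5 and aligned them with STARsolo 2.7.10a to mm39 with GENCODE M26 and transgene sequences, over exons and introns. They deposited unfiltered expected counts of UMIs for every gene in each barcode, and divided reads that matched several genes by expectation maximization. Strand was used in counting.

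Barcodes had at least 1000 UMIs, 800 genes, a gene complexity of 0.8, at most 15% mitochondrial and 5% hemoglobin UMIs. A barcode was assigned to the list of markers of which it showed the largest share, with at least 3 markers, when the next list reached at most 0.6 of that share. The limits were set from markers alone. Barcodes of more than 1 type were left out as likely doublets, and no other doublet caller was run. Subtypes took at least 2 (EC) or 3 (MSC) of their markers, and 406 of 5692 gated MSCs took none. The cell names are rebuilt and can differ from those of the study.

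Expected counts were summed per library and type, rounded and tested with edgeR 4.0.16 (TMM, quasi-likelihood, R 4.3.3) for genes with a mean of at least 10 UMIs over the 4 libraries. Fold changes carry the TMM factors and so can differ from ratios of CPM. DESeq2 1.42.0 was an alternative. SEs were derived from fold change and F statistic. The fit was tested on simulated data in each type, and recovered 48.08 to 76.24% of the genes changed by log2 1 and 84.54 to 99% of those changed by log2 2. False calls were 5 (OBs) to 30 (sinusoidal ECs, of 177 calls), with 22 of 184 in ECs and 23 of 174 in other ECs, more than the threshold of 0.05 allows. The simulation changed 200 genes in each type, fewer than the 414 to 7114 called in the data, so these rates can differ there. Depth per library and type is that of the sums, so that types with fewer cells are measured less precisely, and intervals on shares of cells cover counting error only. The replicate unit is the library, with 2 libraries per genotype. The p-values do not rest on the spread of a gene's own libraries alone. The fit draws the estimated spread of each gene toward that of the other genes tested in the type.

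The members and lists were chosen with earlier results of these data known. Genes named were the 9 members, up to 3 of each wider list with the smallest adjusted p in a type, and the 3 most alike genes; examples printed come from these. *Ddx58* and *Wars* stand in the files for *Rigi* and *Wars1*. Positions and sequence came from GRCm39 with GENCODE M39, a later release than that of the counts. Some genes that these rules select are not reported here.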

Additional observations from a re-analysis of the deposited data

Results flagged for a closer look

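In the joint fit of 7 main types, the effect of genotype differed from the mean effect of the other types for 7 combinations of gene and type (edgeR, quasi-likelihood). *Irf1* differed by -0.64 in CHOs, by -0.47 in dpMSCs and by 0.93 in SMCs, on the log2 scale. *Isg15* differed by 0.78 in ECs and *Ifit3* by 1.27 in CHOs. *Bst2* differed by -0.59 in OBs and by 0.87 in fibroblasts. The *Isg15* difference was not called without mutant 2, without control 2, with types defined by clusters or with barcodes of 2 types kept, and the *Ifit3* difference not without control 1 or control 2. Over 10 alternatives the adjusted p of these differences ran from 9.03e-06 to 0.00449 (*Irf1*, CHOs), 2.87e-05 to 0.181 (*Irf1*, SMCs), 0.0025 to 0.112 (*Irf1*, dpMSCs), 0.0138 to 0.456 (*Isg15*, ECs), 0.0152 to 0.941 (*Ifit3*, CHOs), 0.0242 to 0.446 (*Bst2*, OBs) and 0.0147 to 0.29 (*Bst2*, fibroblasts), all by edgeR.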

How the results depend on the processing

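Beside the values named in the report, 15 alternatives were run for most values, and no called value changed direction. *Irf1* in ECs and SMCs and *Isg15* in ECs passed in all of them. Of the fold changes and joint differences of the members under an alternative, 1061 kept their side of the threshold, 62 lost and 34 gained it, and 14 that were not called changed sign by more than 1 SE. All genes called per type, 414 to 7114 by edgeR, were 150 to 4110 by DESeq2 and 242 to 4740 with no gene filter. With 1 library left out they ran from 322 to 2433 in other ECs (1431 with all 4), 107 to 932 in OBs (791), 94 to 383 in fibroblasts (414), 430 to 1357 in mpMSCs (840), 638 to 1671 in sinusoidal ECs (1659), 1104 to 1858 in arterial ECs (2095), 2907 to 3934 in ECs (4462), 1738 to 2981 in dpMSCs (2898) and 3902 to 5677 in CHOs (7114). The cause of each change was not tested. Over the alternatives the adjusted p (edgeR, or DESeq2 for that alternative) of *Irf1* ran from 0.000211 to 0.0207 in ECs, 0.000855 to 0.0551 in arterial ECs, 0.00176 to 0.102 in sinusoidal ECs, 0.00262 to 0.122 in dpMSCs, 0.00209 to 0.0845 in mpMSCs, 2.37e-09 to 0.0614 in OBs and 4.48e-19 to 0.00113 in SMCs. The ranges were 0.000274 to 0.0175 for *Isg15* in ECs, 0.00743 to 0.245 for *Ifit3* in arterial ECs, 0.00031 to 0.0813 and 0.00151 to 0.154 for *Gbp2* in CHOs and SMCs, and 0.0196 to 0.286 and 0.0229 to 0.996 for *Bst2* in dpMSCs and SMCs.

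With DESeq2 the members called were 0 in arterial ECs, 0 in sinusoidal ECs, 0 in dpMSCs, 0 in mpMSCs, 0 in CHOs and 1 in SMCs, *Irf1* passed in 3 types, and the lists gave 4 (antiviral, lower, ECs), 9 (antiviral, lower, dpMSCs), 3 (GTPases, lower, ECs) and 3 (antigen presentation, higher, ECs). With no gene filter the counts were 1 in arterial ECs, 0 in sinusoidal ECs, 0 in dpMSCs, 0 in mpMSCs, 2 in OBs, 0 in CHOs and 1 in fibroblasts, *Irf1* passed in 4 types, and 7 antiviral genes were lower in dpMSCs. A filter on 20% of cells gave 1 in arterial ECs, and filterByExpr or subtracted free RNA 1 in fibroblasts. Keeping barcodes of 2 types gave 5 in dpMSCs, 4 in mpMSCs and 3 in CHOs, clusters of cells 4 in mpMSCs and 3 in OBs, the stricter barcode filter 2 in mpMSCs, and leaving out clusters of almost 1 genotype (chosen after seeing the data) 0 in CHOs and 1 in SMCs. Unthinned (also chosen later), the share of cells with 3 or more members differed by 8.53 points in ECs and -4.53 in dpMSCs, against 0.279 and -1.52 thinned.

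Leaving out 1 library at a time gave 2 to 3 members called in ECs, 1 to 2 in arterial, 0 to 1 in sinusoidal and 0 to 1 in other ECs, 0 to 3 in dpMSCs, 0 to 2 in mpMSCs, 0 to 2 in OBs, 0 to 1 in CHOs and 1 to 3 in SMCs. *Irf1* passed in 5 to 7 types, and 3 to 6 of the joint differences were called. The lists gave 6 to 14 antiviral genes lower in ECs and 12 to 21 in dpMSCs, 5 to 7 GTPases lower and 3 to 7 antigen presentation genes higher in ECs.

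The libraries share replicate numbers, but over all genes tested samples with the same number did not deviate together (correlations of -0.05 to 0.08). Counting noise can also keep such correlations low, so they cannot exclude a pairing. With a replicate block, 2 members were called in OBs, 2 in CHOs and 1 in fibroblasts. In dpMSCs the count stayed 2, but the block ended the *Bst2* call (edgeR adjusted p = 0.0649) and made one for *Ifit3* (edgeR adjusted p = 0.0442).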

Other observations

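*Icam1*, a leukocyte adhesion molecule that interferon-γ and other inflammatory signals induce, was higher in mutants in ECs, with 272 and 302 CPM against 191 and 167 in controls (log2 fold change 0.76, edgeR adjusted p = 0.000854), and in each EC class. It was higher in mpMSCs too, with 27.2 and 46.1 against 10.2 and 9.01 CPM (2.03, edgeR adjusted p = 0.00194). The chemokine gene *Cxcl9* was called higher in mpMSCs (3.15), but that value rested on mutant 1, which had 269 CPM against 17.4 in mutant 2 and 21.2 and 10.6 in the controls. It was also called higher in dpMSCs (0.47, edgeR adjusted p = 0.041), again with mutant 1 apart at 393 CPM against 221 in mutant 2 and 229 and 222 in the controls. In OBs it was called lower (edgeR adjusted p = 0.0162), at 0 CPM in both mutants and 4.10 and 9.82 CPM in the controls. It reached the count filter there through the controls alone.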
